A study of Mus musculus with 47 samples.

Results

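RNA levels were compared between the G2M and the G1 phase of the cell cycle in mouse embryonic stem cells (ESCs) that had received an siRNA against Tdg (siTdg). The comparison holds 4 libraries, 2 of siTdg G2M cells and 2 of siTdg G1 cells, out of 47 samples in the series. Levels are in RPKM, reads scaled to the length of a gene and the depth of a library. A gene was tested if its RPKM averaged 0.5 or more over these 4 libraries, which 12533 of the 26182 genes listed did. The cells were of the line E14Tg2A, grown without serum in N2B27 with LIF and the inhibitors PD0325901 and CHIR99021, which hold ESCs in the naive state. A second set of 2 siC G2M and 2 siC G1 libraries, from the same line with a control siRNA (siC), served to ask whether a phase difference in siTdg cells differed from that in control cells. These siC libraries were also in the fit that tested the siTdg phase difference, so its spread was estimated over the 4 pairs of both siRNAs. RNA was depleted of ribosomal RNA and made into stranded total RNA libraries. The labels give no time after siRNA for these libraries, and how the phases were separated is not given in the sources used here. Libraries of a group are numbered replicate 1 and 2, and the labels say neither that they came from separate cultures nor what a shared number marks. The main test pairs libraries by replicate number, so its p-values measure the spread of phase differences between pairs. That spread may be technical.

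A dividing cell makes much of the RNA for mitosis late, in G2, and the RNA for starting DNA replication before and around the start of S phase. The late genes are switched on by the MuvB complex with B-Myb and FoxM1, and many carry in their promoters the cell cycle homology region (CHR) and CCAAT boxes bound by NF-Y. TDG, thymine DNA glycosylase, removes thymine from mismatches with guanine and removes oxidised forms of 5-methylcytosine. The title of the series names TDG as a regulator of p53 through the cell cycle, so the targets of p53 are described here beside the cell-cycle genes. In bulk RNA, fewer cells of a type and less RNA per cell cannot be told apart, so a difference between G2M and G1 may hold both.

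Tdg, the gene the siRNA targets, stood at 12.3 and 8.63 RPKM in siTdg G2M and at 9.64 and 7.53 RPKM in siTdg G1 (replicates 1 and 2). The siC libraries, scaled in a table of their own, held 61.6 and 63.1 RPKM in G2M and 54.8 and 59.6 RPKM in G1. Each siTdg library was thus below each siC library. Between the phases of siTdg cells Tdg had a log2 difference of 0.26 (SE 0.06, adjusted p = 0.0374), but the G2M and G1 libraries overlapped, and without pairing by replicate number the adjusted p was 0.708. The 8 libraries held between 24076402 and 34783249 reads in genes. All 8 ESC markers passed the filter and 1, Sox2, was called, and their summed level was 4300 and 4962 RPKM in siTdg G2M against 4058 and 5394 RPKM in siTdg G1. Pou5f1, which encodes Oct4, was at 733 and 815 RPKM in siTdg G2M and at 713 and 932 RPKM in siTdg G1. Most markers of other cells were below the filter. Of 12 fibroblast and feeder markers 3 passed it and 0 were called, 1 was at 0 in all 4 libraries, and the sum lay between 94.4 and 101 RPKM in each siTdg library, nearly all of it Vim, which averaged 92.5 RPKM. The 8 trophoblast markers (3 tested) summed to 21.7 and 25.5 RPKM in siTdg G2M and 24.7 and 30.6 RPKM in siTdg G1, and 1, Tfap2c, was lower. The 8 primitive endoderm markers (2 tested) summed to 12.1 and 9.53 RPKM in siTdg G2M and 11.2 and 8.75 RPKM in siTdg G1, and 1, Lama1, was higher. The 8 neural markers (3 tested) summed to 60.3 and 59.9 RPKM in siTdg G2M and 47.7 and 51.7 RPKM in siTdg G1, and 1, the tubulin gene Tubb3, was higher. Over all genes tested 9.42% were higher in siTdg G2M and 4.05% lower, and the marker lists are too short to be set against these shares. Without pairing 0 genes of these marker lists were called.

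With libraries paired by replicate number, 1180 of the 12533 genes were higher in siTdg G2M (9.42%) and 507 were lower (4.05%), at an adjusted p under 0.05 by limma with Benjamini-Hochberg adjustment. Most differences were small. The median log2 difference was 0.38 over the genes called higher and -0.42 over those called lower, against 0.02 over all genes tested. Only 17 genes called higher and 13 called lower differed by at least 1 on the log2 scale. Of the 1687 genes called, 1257 had no overlap between G2M and G1 libraries, while 430 overlapped. Over all genes tested 4182 (33.4%) had no overlap. Across all genes tested the differences of the replicate 1 pair and of the replicate 2 pair had a Pearson r of 0.50, a description over genes that share libraries. With quantile normalization 997 genes were higher and 831 lower, and with limma-voom on recovered reads 977 and 781, so the excess of higher genes was smaller there. The number of calls rests on the pairing. Without it limma called 18 genes higher (0.144%) and 3 lower (0.0239%), and all 21 were among the paired calls. The authors' deposited table, of 11613 genes with an adjusted p, holds 481 higher (4.14%) and 102 lower (0.878%) in siTdg G2M, and the 582 of these that were tested here were all among the 1687.

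**Figure D1:**
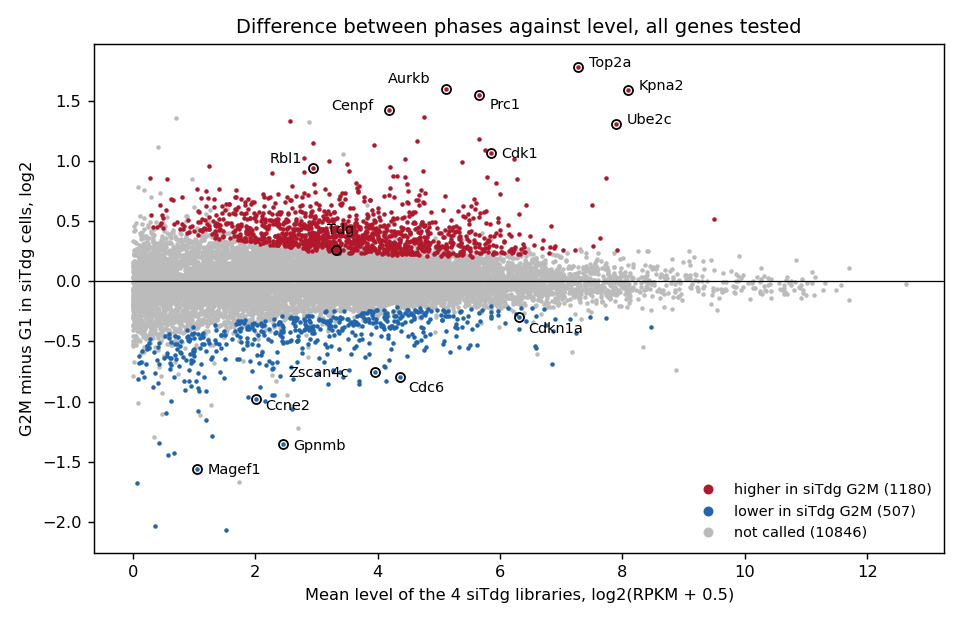
Each point is one of the 12533 genes tested, with its mean level over the 4 siTdg libraries on the x axis and its G2M minus G1 difference in siTdg cells on the y axis, both on log2 scales. Red points are the 1180 genes called higher and blue points the 507 called lower in siTdg G2M; Top2a stands highest at 1.78, and most called genes lie within 0.5 of 0.

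Among genes called higher, averaging at least 1 RPKM in siTdg G2M and with no overlap of libraries, Top2a led. Top2a, the topoisomerase that untangles sister chromatids, had 239 and 240 RPKM in siTdg G2M against 61.1 and 78.8 RPKM in siTdg G1, a log2 difference of 1.78 (SE 0.10, adjusted p = 0.000521). Aurkb, the kinase of the chromosomal passenger complex, had 52.4 and 51.0 RPKM in siTdg G2M against 15.3 and 18.2 RPKM in siTdg G1 (log2 difference 1.60). Kpna2, an importin alpha that carries cargo into the nucleus, had 397 and 420 RPKM in siTdg G2M against 116 and 157 RPKM in siTdg G1 (1.59). In these 3 genes the G2M libraries lay close together and far above both G1 libraries. Prc1, which bundles microtubules of the central spindle, had 73.4 and 75.7 RPKM in siTdg G2M against 22.0 and 28.8 RPKM in siTdg G1 (1.55). Cenpf, a protein of the outer kinetochore, had 32.3 and 20.0 RPKM in siTdg G2M against 10.9 and 7.77 RPKM in siTdg G1 (1.42). Its replicate 2 libraries were lower than its replicate 1 libraries in both phases, and without pairing its adjusted p was 0.236.

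Of the next 10 genes by size, 9 are the ubiquitin ligase gene G2e3 (1.33), Ube2c (1.31), Kif11 (1.18), Cdca2 (1.17), which brings the phosphatase PP1 to chromosomes, Depdc1b (1.15), Hyls1 (1.13), Fzr1 (1.09), Cdk1 (1.07) and Smc4 (1.02), all log2 differences. Ube2c, the ubiquitin-conjugating enzyme of the anaphase-promoting complex (APC/C), had 352 and 322 RPKM in siTdg G2M against 124 and 148 RPKM in siTdg G1. Kif11, the kinesin that keeps the spindle bipolar, had 72.7 and 66.5 RPKM in siTdg G2M against 28.0 and 33.0 RPKM in siTdg G1. Cdk1, the main mitotic kinase, had 71.3 and 82.3 RPKM in siTdg G2M against 28.4 and 46.1 RPKM in siTdg G1. Its pairs differed by more than those of Smc4, a condensin subunit with 105 and 94.7 RPKM in siTdg G2M against 49.5 and 48.4 RPKM in siTdg G1. Adjusted p-values of these 9 ranged from 0.000521 for G2e3, Fzr1 and Smc4 to 0.0033 for Cdk1. Without pairing, Hyls1 (adjusted p = 0.0665), Cdk1 (0.223) and Cenpf lost the call among the 15 highest genes.

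**Figure D2:**
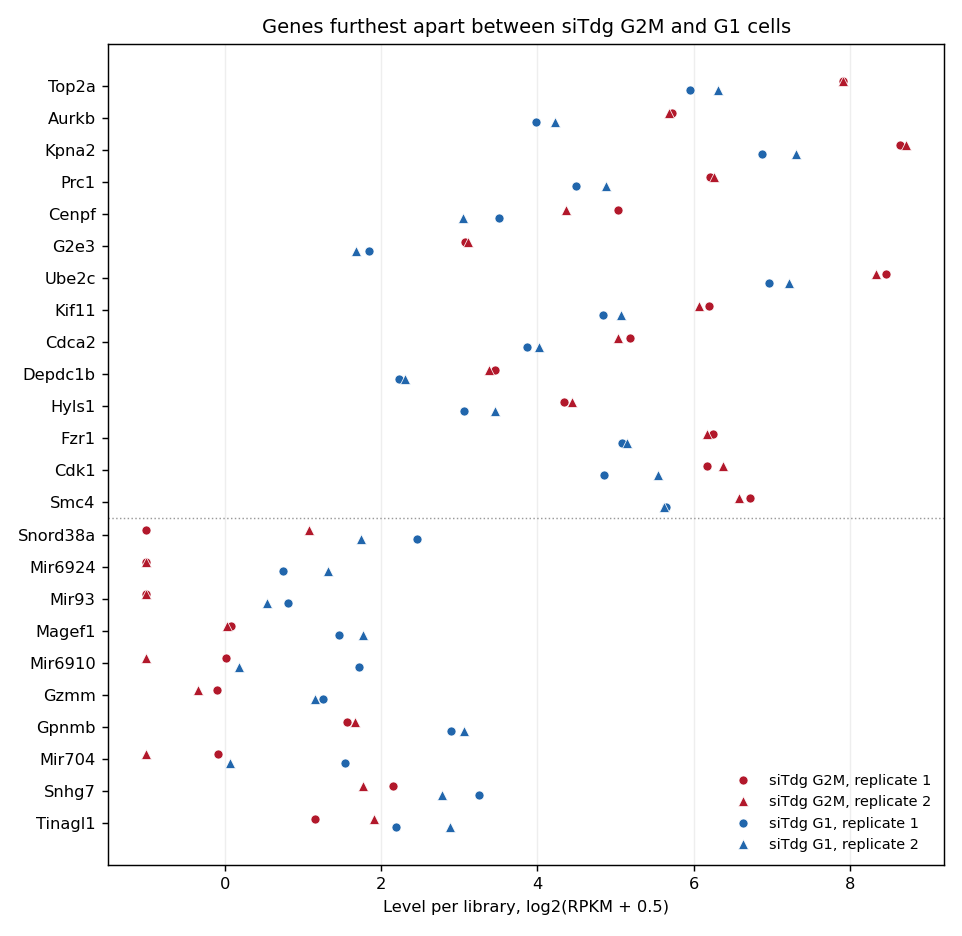
Level of each siTdg library on a log2(RPKM + 0.5) axis for 14 of the 15 genes with the largest (above the dotted line) and the 10 with the most negative difference among called genes that averaged at least 1 RPKM in the higher group and had no overlap of libraries, with siTdg G2M in red and siTdg G1 in blue, circles for replicate 1 and triangles for replicate 2. For Top2a the G2M libraries lie near 239 RPKM and the G1 libraries at 61.1 and 78.8 RPKM; Mir6924 and Mir93 have no read in either G2M library.

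Promoter windows of the 4 highest genes with an entry in the RefSeq table (build GRCm38.p6, 250 bases before to 50 bases after the start of the gene) are shown to let the shared motifs be seen. Capitals mark CHR motifs (TTTGAA or TTCGAA) and CCAAT boxes (CCAAT), each on either strand, so that a reverse match reads TTCAAA or ATTGG. Windows are read 5′ to 3′ along the gene's strand.
Top2a (chr11:99024140-99024439, minus strand): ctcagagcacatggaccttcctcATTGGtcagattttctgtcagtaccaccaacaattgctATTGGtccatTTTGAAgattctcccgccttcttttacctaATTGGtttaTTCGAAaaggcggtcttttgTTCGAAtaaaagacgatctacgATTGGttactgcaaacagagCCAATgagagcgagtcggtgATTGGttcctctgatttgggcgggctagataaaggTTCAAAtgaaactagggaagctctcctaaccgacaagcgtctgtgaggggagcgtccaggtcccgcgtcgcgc
Kpna2 (chr11:106999476-106999775, minus strand): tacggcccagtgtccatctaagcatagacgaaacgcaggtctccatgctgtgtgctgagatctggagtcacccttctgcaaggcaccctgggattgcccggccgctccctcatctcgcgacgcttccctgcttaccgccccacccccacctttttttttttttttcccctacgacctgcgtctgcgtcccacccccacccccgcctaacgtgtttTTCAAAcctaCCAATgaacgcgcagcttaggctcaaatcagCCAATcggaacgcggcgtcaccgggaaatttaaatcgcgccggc
Prc1 (chr7:80294201-80294500, plus strand, 1 of 2 windows listed): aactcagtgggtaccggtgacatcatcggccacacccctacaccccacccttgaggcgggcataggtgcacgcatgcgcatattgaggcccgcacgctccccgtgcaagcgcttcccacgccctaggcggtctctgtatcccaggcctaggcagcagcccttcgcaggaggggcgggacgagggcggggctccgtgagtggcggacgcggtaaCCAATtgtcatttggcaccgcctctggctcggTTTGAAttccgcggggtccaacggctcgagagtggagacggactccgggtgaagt
Cenpf (chr1:189688037-189688336, minus strand): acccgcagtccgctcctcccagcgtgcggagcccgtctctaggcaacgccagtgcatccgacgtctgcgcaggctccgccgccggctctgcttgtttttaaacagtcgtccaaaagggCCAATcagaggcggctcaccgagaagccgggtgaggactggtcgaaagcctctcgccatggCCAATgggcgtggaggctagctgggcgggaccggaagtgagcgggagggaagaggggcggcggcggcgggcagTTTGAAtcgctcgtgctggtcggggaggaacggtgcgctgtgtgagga

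Top2a held 4 CHR motifs and 6 CCAAT boxes, Kpna2 1 and 2, Prc1 1 and 1, and Cenpf 1 and 2. No 2 matches overlapped. No E2F motif, searched as TTTCCCGC, TTTGGCGC, TTTCGCGC or TTTGCCGC on either strand, was in these 4 windows. Among the 15 highest genes 10 had a window, of which 7 held both a CHR motif and a CCAAT box. Over all tested genes with a window, 1615 of 9898 (16.3%) held a CHR motif and 702 (7.09%) held both. Of 934 genes called higher in siTdg G2M with a window, 201 (21.5%) held a CHR motif and 103 (11%) held both, and of 382 genes called lower 66 (17.3%) and 24 (6.28%) did. CCAAT boxes, with or without a CHR motif, were in the windows of 46.3% of genes called higher, 43.7% of those called lower and 43.8% of all. E2F motifs were in 7.28% of genes called higher, 6.28% of those called lower and 4.99% of all. In a list of 30 genes known for DREAM or CHR promoters, 24 had a window and 16 of these (66.7%) held a CHR motif. The list was chosen for such promoters, so a high share was built in. It also holds some of the 15 highest genes, such as Top2a, Aurkb and Prc1. Of the 30, 16 (53.3%) were higher in siTdg G2M and 0 lower, against 9.42% and 4.05% of all genes tested. The median log2 difference of the 30 was 0.38. A match of letters is a description and not a measured binding site.

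Among 28 mitotic kinases and cyclins, 18 were higher in siTdg G2M (64.3%, against 9.42% of all genes tested), 1 was lower and 9 did not pass the test, with a median log2 difference of 0.38 against 0.02 over all genes tested. Ccnb1, cyclin B1, the partner of Cdk1, had 275 and 269 RPKM in siTdg G2M against 128 and 175 RPKM in siTdg G1 (log2 difference 0.86, adjusted p = 0.00674). Plk1, the polo kinase of mitotic entry and spindle assembly, had 81.5 and 76.5 RPKM in siTdg G2M against 47.2 and 48.2 RPKM in siTdg G1 (0.72). Aurka, the centrosomal Aurora kinase, had 101 and 108 RPKM in siTdg G2M against 60.6 and 74.2 RPKM in siTdg G1 (0.63). Wee1, which holds Cdk1 inactive by phosphorylation, rose as well, with 26.4 and 24.2 RPKM in siTdg G2M against 15.2 and 12.1 RPKM in siTdg G1 (0.87). Ccna2, cyclin A2, with roles in S phase and G2, differed by 0.31. The 1 member that fell was Cdc25a, a phosphatase that activates cyclin-dependent kinases also at the start of S phase, with 29.7 and 28.5 RPKM in siTdg G2M against 37.8 and 35.3 RPKM in siTdg G1 (-0.32).

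Not every mitotic gene was higher. Ccnb2, cyclin B2, had 62.5 and 70.9 RPKM in siTdg G2M and 66.2 and 94.7 RPKM in siTdg G1 (log2 difference -0.25, adjusted p = 0.0982). Cdc20, the APC/C activator of anaphase, had 158 RPKM in both siTdg G2M libraries and 167 and 208 RPKM in siTdg G1 (-0.24, adjusted p = 0.139). Kif20a, a kinesin of cytokinesis, had 69.9 and 66.8 RPKM in siTdg G2M and 66.3 and 72.7 RPKM in siTdg G1 (-0.02). Cenpa, the centromeric histone, had 80.9 and 80.4 RPKM in siTdg G2M and 84.6 and 123 RPKM in siTdg G1 (-0.34, adjusted p = 0.109). These 4 genes were chosen after their values were seen. In siC cells their log2 differences were -0.16, -0.24, -0.03 and -0.25 in the same order.

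Over all genes tested 9.42% were higher in siTdg G2M and 4.05% lower. Among 40 genes of the spindle, kinesins and cytokinesis 23 (57.5%) were higher in siTdg G2M and 0 lower (median log2 difference 0.37). Besides Kpna2, Prc1, G2e3, Kif11 and Depdc1b they included Fam83d (1.01), Nusap1 (0.99), a microtubule-binding protein of the spindle, Kif18a (0.95), a kinesin that damps chromosome movements, Kif14 (0.91) and Aspm (0.74), which acts at spindle poles. Nusap1 had 55.3 and 54.7 RPKM in siTdg G2M against 25 and 29.9 RPKM in siTdg G1. The kinetochore and checkpoint list had a median of 0.29, with 0.17 without siTdg replicate 1 and 0.38 without siTdg replicate 2. Of its 38 genes 17 (44.7%) were higher and 0 lower. Besides Cenpf they included Cenpl (1.00), Bub3 (0.81), Sgo2a (0.76), which guards centromeric cohesion, Knl1 (0.73) and Cenpe (0.71), the kinesin of the kinetochore. Of 34 genes of chromosome structure and the passenger complex 17 (50%) were higher and 0 lower (median 0.22). These included the condensin genes Smc4, Ncaph (0.71), Smc2 (0.53), Ncapd3 (0.32), Ncapg (0.29) and Ncapg2 (0.27), the cohesin genes Smc1a (0.42), Stag2 (0.42) and Smc3 (0.38), and Incenp (0.86), the scaffold of the passenger complex. Mki67, which encodes the proliferation marker Ki-67, had 43.6 and 25.9 RPKM in siTdg G2M and 28.4 and 17.6 RPKM in siTdg G1 (0.58). Its libraries overlapped between the phases because replicate 2 was lower in both.

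Of 20 genes of the APC/C and mitotic exit 5 (25%) were higher and 0 lower, against 9.42% and 4.05% of all genes tested, with a median of 0.00. Enzymes and regulators led them, namely Ube2c, Fzr1, the activator of the APC/C in late mitosis and G1, and Fbxo5 (0.59), an inhibitor of the APC/C, while of the core subunits Cdc27 (0.29) and Anapc1 (0.22) were called. Fzr1 had 75.3 and 71.2 RPKM in siTdg G2M against 33.2 and 34.9 RPKM in siTdg G1. Among 24 MuvB, Myb and E2F regulators 6 (25%) were higher and 1 (4.17%) lower (median 0.13). Rbl1, the pocket protein p107, had 10.1 and 9.22 RPKM in siTdg G2M against 5.11 and 4.47 RPKM in siTdg G1 (0.94). Nfya, a subunit of NF-Y, differed by 0.50, E2f3 by 0.45, Foxm1 by 0.43, Lin9 by 0.32 and Tfdp1 by 0.28. E2f1, an activator of S-phase genes, fell, with 12.9 and 13.3 RPKM in siTdg G2M against 18 and 16.4 RPKM in siTdg G1 (-0.38). Without pairing, limma called 1 of the 28 kinases and cyclins, 9 of the 40 spindle genes, 2 of the 38 kinetochore genes, 3 of the 34 chromosome genes, 2 of the 20 APC/C genes and 0 of the 24 regulators, with unchanged medians.

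**Figure D3:**
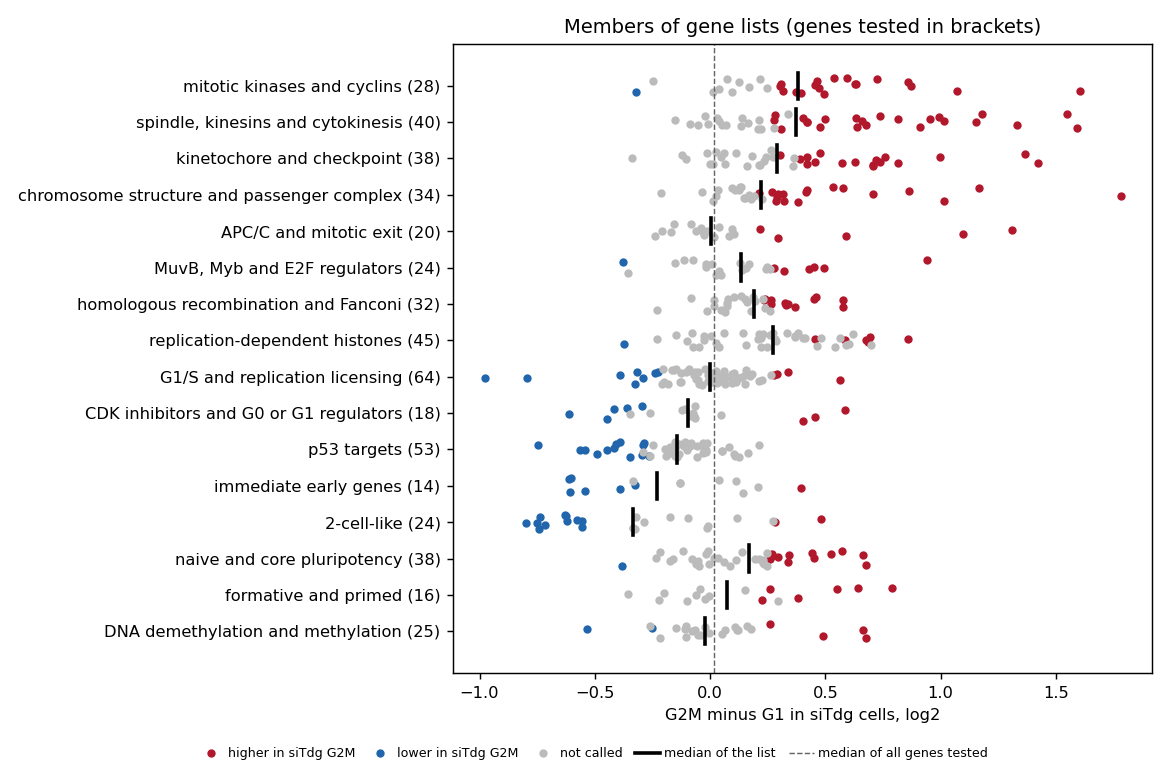
G2M minus G1 difference in siTdg cells, on a log2 scale, of each tested member of 16 gene lists, with the number tested in brackets, called members in red (higher in siTdg G2M) or blue (lower), list medians as black bars and the median of all genes as a dashed line at 0.02. The mitotic lists reach furthest to the right, while the medians of the p53 targets (-0.14), immediate early genes (-0.23) and 2-cell-like genes (-0.33) lie to the left.

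Of 64 G1/S and licensing genes 4 (6.25%) were higher in siTdg G2M, 8 (12.5%) were lower and 52 did not pass the test, against 9.42% and 4.05% of all genes tested, with a median of 0.00. The counts were 5 higher and 18 lower without siTdg replicate 1, 14 and 10 without siTdg replicate 2, 4 and 4 without either siC replicate, and 0 and 0 without pairing. Ccne2, cyclin E2, which with Cdk2 starts S phase, had 1.95 and 2.50 RPKM in siTdg G2M against 4.73 and 4.94 RPKM in siTdg G1 (log2 difference -0.98, adjusted p = 0.0117). Cdc6, which loads the MCM helicase at origins, had 13.3 and 15.8 RPKM in siTdg G2M against 25.5 RPKM in both siTdg G1 libraries (-0.80, adjusted p = 0.0038). Orc1, the largest subunit of the origin recognition complex, had 37.7 and 41.4 RPKM in siTdg G2M against 48.3 and 56.1 RPKM in siTdg G1 (-0.39). The others that fell were Orc6 (-0.33), Ccne1 (-0.31), Slbp (-0.29), which binds the stem-loop of histone mRNAs, Rfc3 (-0.24) and Rpa2 (-0.23). Those that rose were Cdk6 (0.56), a G1 kinase, Pola1 (0.34), Pole (0.29) and Rfc1 (0.28). Pcna, the sliding clamp, had 435 and 491 RPKM in siTdg G2M and 451 and 563 RPKM in siTdg G1 (-0.12, adjusted p = 0.348). Of Mcm2 to Mcm7, the 6 subunits of the replicative helicase, 0 were called, with Mcm5 lowest at -0.20 (adjusted p = 0.0968).

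Of 18 CDK inhibitors and regulators of G0 or G1 3 (16.7%) were higher and 5 (27.8%) lower, against 9.42% and 4.05% of all genes tested (median -0.10), and without pairing 0 were called. Those that fell were Cdkn1c (-0.61), Btg2 (-0.45), Ccng1 (-0.42), Gadd45b (-0.36) and Cdkn1a (-0.29). Those that rose were Cdkn2d (0.58), the inhibitor p19 of Cdk4 and Cdk6, Ccng2 (0.46) and Cdkn1b (0.40), the inhibitor p27. Cdkn1b had 27.0 and 24.9 RPKM in siTdg G2M against 18.8 and 20.1 RPKM in siTdg G1. Cdkn1c stood at 0.701 and 0.847 RPKM in siTdg G2M and 1.29 and 1.60 RPKM in siTdg G1, so its values are close to the filter. Replication-dependent histone genes, whose mRNA has no poly(A) tail and can be retained when ribosomal RNA is depleted, were below 4 RPKM in every siTdg library for the 7 members called. Only 4 of the 45 tested averaged at least 2 RPKM over the siTdg libraries, so most of the list was near the filter. Of 45 tested 6 (13.3%) were higher and 1 (2.22%) lower, shares near the 9.42% and 4.05% of all genes tested. The counts were 2 higher and 5 lower without siTdg replicate 1, 17 and 0 without siTdg replicate 2, 17 and 1 or 18 and 1 without a siC replicate, and 0 and 0 without pairing. Their median was 0.27 in the paired model but 0.60 in the replicate 1 pair and 0.00 in the replicate 2 pair. Copies of these genes are near identical, so how reads fell among them is uncertain. How fully their mRNA was captured and counted was not tested, so these values may not measure histone mRNA.

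The lowest differences fell into a group of longer genes and a group of short RNA genes with few reads. Of the longer genes, Magef1 was near the filter level in siTdg G2M. Gzmm was below that level in both siTdg G2M libraries and passed the filter through siTdg G1. Over the settings run the log2 difference ranged from -2.28 to -1.21 for Magef1 and from -2.34 to -1.05 for Gzmm, so its size is uncertain. Magef1, a member of the MAGE family, had 0.560 and 0.521 RPKM in siTdg G2M against 2.26 and 2.91 RPKM in siTdg G1 (log2 difference -1.56, adjusted p = 0.00132), from 24 reads in each siTdg G2M library and 89 and 101 reads in siTdg G1. Gzmm, which encodes granzyme M, had 0.436 and 0.293 RPKM in siTdg G2M against 1.90 and 1.73 RPKM in siTdg G1 (-1.43), from 13 to 72 reads per library. Gpnmb, a transmembrane glycoprotein gene, had 2.46 and 2.69 RPKM in siTdg G2M against 6.92 and 7.84 RPKM in siTdg G1 (-1.36). Snhg7, a host gene of small nucleolar RNAs, had 3.94 and 2.90 RPKM in siTdg G2M against 9.07 and 6.40 RPKM in siTdg G1 (-1.06). Tinagl1, an extracellular matrix protein gene, had 1.74 and 3.27 RPKM in siTdg G2M against 4.06 and 6.85 RPKM in siTdg G1 (-1.0). Without pairing Magef1 and Gzmm kept the call (adjusted p = 0.0221 and 0.0384), and Gpnmb, Snhg7 and Tinagl1 lost it (adjusted p = 0.0980, 0.354 and 0.554). Of 16 tested Snhg genes, a group chosen after its values were seen, 4 were lower (25%) and 0 higher, against 4.05% and 9.42% of all genes tested, with 13 of the 16 below 0 and a median of -0.20.

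Snord38a, Mir6924, Mir93, Mir6910 and Mir704 also ranked among the 10 lowest, but they rest on at most 8 reads in any siTdg library. Mir6924 had 0 reads in each siTdg G2M library and 2 and 3 reads in siTdg G1, and Mir93 had 0 reads in each siTdg G2M library and 3 and 2 reads in siTdg G1. Since a count of 0 allows up to 3 reads, no fold is given for them. In RefSeq Mir93 lies within Mcm7, whose log2 difference was -0.07. Reads over such short genes in total RNA do not measure the mature small RNA.

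Of the genes of the p53 pathway, Trp53, which encodes p53, had 182 and 165 RPKM in siTdg G2M and 170 and 155 RPKM in siTdg G1 (log2 difference 0.10, adjusted p = 0.347). Cdkn1a, the inhibitor p21, had 68.1 and 74.3 RPKM in siTdg G2M against 84.4 and 90.3 RPKM in siTdg G1 (-0.29, adjusted p = 0.0173). Mdm2, the ubiquitin ligase of p53, had 56.5 and 47.1 RPKM in siTdg G2M against 67.4 and 58.9 RPKM in siTdg G1 (-0.29, adjusted p = 0.019). For both genes each G2M library was below each G1 library, with Mdm2 at 56.5 RPKM in replicate 1 of G2M and 58.9 RPKM in replicate 2 of G1. Ccng1, cyclin G1, had 105 and 93.0 RPKM in siTdg G2M against 134 and 130 RPKM in siTdg G1 (-0.42, adjusted p = 0.00838). Without pairing Cdkn1a, Mdm2 and Ccng1 lost the call (adjusted p = 0.455, 0.770 and 0.435). In the authors' deposited table their adjusted p-values for siTdg G2M against G1 were 0.113, 0.121 and 0.00415.

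Of 53 p53 targets 13 were lower in siTdg G2M (24.5%, against 4.05% of all genes tested), 0 were higher and 40 did not pass the test, with a median log2 difference of -0.14 and 45 of the 53 below 0. Perp, a membrane protein gene of apoptosis and cell adhesion, had the largest fall, with 6.84 and 6.58 RPKM in siTdg G2M against 11.8 and 11.4 RPKM in siTdg G1 (-0.74). Tap1 (-0.56), a peptide transporter, Plk3 (-0.54) and Plk2 (-0.49), stress-responsive polo kinases, Btg2 (-0.45), an antiproliferative gene, Cd80 (-0.41), Ephx1 (-0.39) and Dcxr (-0.35) followed. Plk2 had 24.9 and 17.6 RPKM in siTdg G2M against 34.4 and 25.6 RPKM in siTdg G1. Phlda3 (-0.29) and Sfn (-0.26) complete the 13 with Cdkn1a, Mdm2 and Ccng1. Among targets that were not called, Bax had 227 and 233 RPKM in siTdg G2M and 222 and 259 RPKM in siTdg G1 (-0.06, adjusted p = 0.639), and Pmaip1, which encodes Noxa, had 4.37 and 3.36 RPKM in siTdg G2M and 5.22 and 3.81 RPKM in siTdg G1 (-0.20, adjusted p = 0.260). The list also holds Gtse1, Ckap2 and Psrc1, which act at the mitotic spindle, and 0 of these 3 were called. Without siTdg replicate 1 there were 22 lower and 2 higher, with the block shared by all 8 libraries 4 lower, and without pairing 0 of the 53 were called. The median ranged from -0.20 to -0.08 over all settings tried. Of 18 genes of p53 and its regulators 3 (16.7%) were higher, namely Crebbp (0.66), Atm (0.58) and Kat5 (0.34), and 1 (5.56%) was lower, Mdm2, against 9.42% and 4.05% of all genes tested, and without pairing 0 were called. Atm, the kinase that signals DNA breaks, had 12.3 and 8.64 RPKM in siTdg G2M against 8.38 and 5.37 RPKM in siTdg G1.

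A list of 25 genes covered DNA methylation, its removal and base excision repair. Of these 4 (16%) were higher, Tdg among them, and 2 (8%) lower, against 9.42% and 4.05% of all genes tested (median -0.02). Tet1 and Tet2, dioxygenases that oxidise 5-methylcytosine, had log2 differences of 0.67 and 0.66. Tet1 had 37.7 and 20.7 RPKM in siTdg G2M and 27.3 and 10.9 RPKM in siTdg G1, and Tet2 had 31.8 and 21.2 RPKM in siTdg G2M and 23.3 and 11.2 RPKM in siTdg G1. In both genes replicate 1 of G1 was above replicate 2 of G2M, so the groups overlapped. Dnmt1, the maintenance methyltransferase, had 80.7 and 64.9 RPKM in siTdg G2M against 57.6 and 45.8 RPKM in siTdg G1 (0.49). Ung, the uracil glycosylase, fell, with 37.1 and 42.9 RPKM in siTdg G2M against 55.3 and 60.6 RPKM in siTdg G1 (-0.53), and so did Polb (-0.25), the polymerase of base excision repair. Of 32 genes of homologous recombination and the Fanconi pathway 12 (37.5%) were higher and 0 lower (median 0.19). Without pairing 0 genes of either list were called. They included Gen1 (0.58), a resolvase of recombination junctions, Brca2 (0.58), Bard1 (0.46), Fancd2 (0.45) and Brca1 (0.24).

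Genes of the 2-cell-like state, a rare state of ESCs in which genes of the 2-cell embryo are on, were lower in siTdg G2M for 11 of 24 tested (45.8%, against 4.05% of all genes tested) and higher for 2 (8.33%, against 9.42%), with a median of -0.33. The 5 Zscan4 genes of the table were all lower, with a median of -0.74, and as close paralogs they may share reads. Zscan4c had 11.9 and 10.4 RPKM in siTdg G2M against 21.3 and 17.0 RPKM in siTdg G1 (-0.75, adjusted p = 0.00365), and Zscan4d had 7.65 and 7.21 RPKM in siTdg G2M against 13.8 and 12.8 RPKM in siTdg G1 (-0.80). Dux, the transcription factor that turns the state on, had 0.622 and 0.703 RPKM in siTdg G2M against 1.41 and 1.18 RPKM in siTdg G1 (-0.62). Usp17lb (-0.74), Gm8300 (-0.63), Usp17ld (-0.62), Tmem92 (-0.58) and Arg2 (-0.56) fell as well, and Zscan5b (0.48) and Zfp809 (0.28) rose. For the Zscan4 genes and Dux each G2M library was below each G1 library, and without pairing 0 of the 24 were called. In siC cells the median of the same 24 genes was -0.39.

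Genes of naive and core pluripotency had 12 of 38 higher (31.6%), 1 lower (2.63%) and a median of 0.17, with 9.42% and 4.05% called over all genes tested. With the block shared by all 8 libraries 5 were higher, and without siTdg replicate 1 there were 18 higher and 5 lower. Besides Tet1 and Tet2 the members that rose were Klf5 (0.57), Jarid2 (0.53), Rif1 (0.45), Sall4 (0.44), Tbx3 (0.34), Sox2 (0.34), Manba (0.29), Prdm14 (0.27), Klf2 (0.27) and Nr5a2 (0.26), and Sox15 fell (-0.38). Klf5, a transcription factor of the naive state, had 69.0 and 55.8 RPKM in siTdg G2M against 53.1 and 32.5 RPKM in siTdg G1. Sox2 had 131 and 100 RPKM in siTdg G2M and 109 and 75.6 RPKM in siTdg G1, and its libraries overlapped. Nanog, with 541 and 642 RPKM in siTdg G2M and 550 and 686 RPKM in siTdg G1 (-0.06), and Pou5f1 (-0.08) were not called. Of 16 formative and primed genes 6 (37.5%) were higher and 0 lower (median 0.07), led by Lefty2 (0.79) and Lefty1 (0.64), secreted inhibitors of Nodal signals. Lefty2 had 21.7 and 10.9 RPKM in siTdg G2M against 8.97 and 8.41 RPKM in siTdg G1, with the wider gap in replicate 1. Of 20 lineage regulators 3 (15%) were higher, Id3 (0.47), Sp5 (0.46) and Axin2 (0.28), the last of them a Wnt response gene, and 3 (15%) were lower, Krt8 (-0.42), Krt18 (-0.41) and Tfap2c (-0.38). Without pairing 0 members of these 3 lists were called.

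Immediate early genes, which respond within minutes to growth factors and stress, were lower for 6 of 14 tested (42.9%, against 4.05% of all genes tested) and higher for 1 (7.14%, against 9.42%), with a median of -0.23. Jun (-0.61), Zfp36 (-0.61), Fos (-0.60), Junb (-0.54), Dusp1 (-0.39) and Jund (-0.33) fell and Klf6 rose (0.40). Jun had 1.21 and 0.834 RPKM in siTdg G2M against 2.02 and 1.59 RPKM in siTdg G1, and Junb had 6.86 and 7.50 RPKM in siTdg G2M against 10.5 and 10.8 RPKM in siTdg G1. Fos varied more between replicates than between phases, with 1.73 and 0.435 RPKM in siTdg G2M and 2.75 and 0.976 RPKM in siTdg G1. Of 15 genes of apoptosis and the stress response 3 (20%) were higher and 1 (6.67%) lower, against 9.42% and 4.05% of all genes tested (median -0.07), and without pairing 0 genes of either list were called. Chac1, a target of Atf4 that degrades glutathione, had 4.81 and 13.3 RPKM in siTdg G2M and 2.64 and 5.17 RPKM in siTdg G1 (1.02), with overlap. Atf4 itself, the transcription factor of the integrated stress response, had 210 and 237 RPKM in siTdg G2M against 158 and 190 RPKM in siTdg G1 (0.36), and Hspa5, the chaperone BiP of the endoplasmic reticulum, had 340 and 276 RPKM in siTdg G2M against 412 and 385 RPKM in siTdg G1 (-0.38).

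To ask whether depletion of Tdg altered these phase differences, the difference in siTdg cells was set against that in siC cells in the same model. The test of this difference called 1 of 12533 genes (0.00798%), Mir3064, and 467 genes (3.73%) had an unadjusted p under 0.05. In siC cells 637 genes were higher in G2M (5.08%) and 438 lower (3.49%). Of the 1687 genes called in siTdg cells 784 (46.5%) were also called in siC cells, which is 72.9% of the siC calls, and all 784 had the same direction. Both tests used 1 shared spread per gene (for Top2a an SE of 0.10 in each), so the 2 sets of calls are not independent. A gene called with one siRNA and not with the other is not thereby shown to differ. Among genes called higher in siTdg cells 1164 of 1180 were above 0 in siC cells, and among those called lower 488 of 507 were below 0. Across genes the 2 phase differences had a Pearson r of 0.70 and a Spearman rho of 0.70, given as a description since genes are not independent.

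For Top2a the phase difference in siTdg cells minus that in siC cells was -0.04 on the log2 scale (95% interval -0.35 to 0.27). For Cdkn1a it was -0.01 (-0.20 to 0.18), for Mdm2 0.03 (-0.16 to 0.22), for Ccng1 0.02 (-0.18 to 0.23) and for Trp53 0.02 (-0.19 to 0.23). The log2 differences themselves were -0.29 in siTdg and -0.28 in siC for Cdkn1a, -0.29 and -0.32 for Mdm2, and -0.42 and -0.44 for Ccng1. Over the 53 p53 targets the median was -0.14 in both siTdg and siC cells, and 0 of them reached an unadjusted p under 0.05 for the difference. The 24 2-cell-like genes also had 0 below that p. Of the 45 histone genes, most of them near the filter, 8 had an unadjusted p under 0.05. The median of the 45 was 0.27 in siTdg cells against 0.60 in siC cells. The median width of the 95% interval over all genes was 0.53 on the log2 scale, so most differences between siRNAs are bounded only to within such an interval at this number of libraries.

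**Figure D4:**
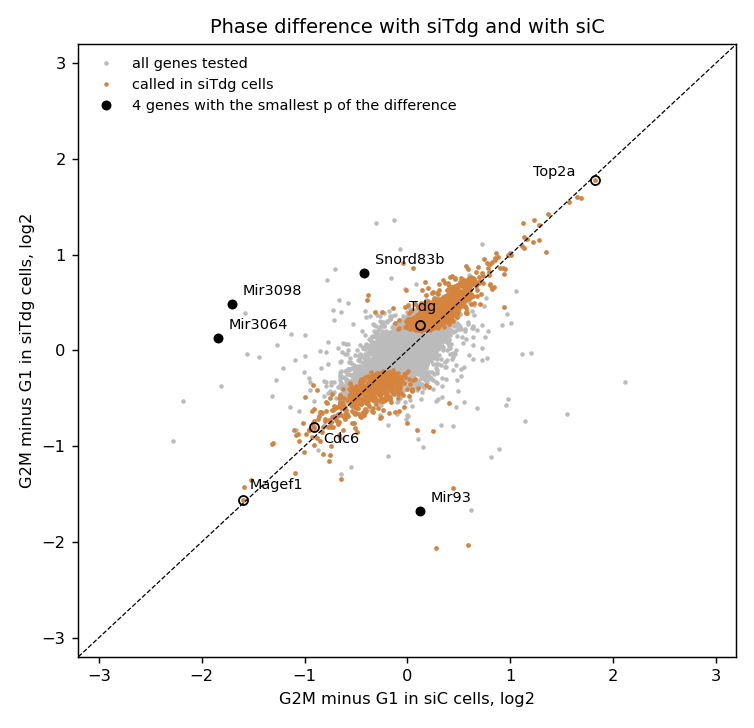
Each point is a gene, with the G2M minus G1 log2 difference in siTdg cells on the y axis and in siC cells on the x axis; orange points are the 1687 genes called in siTdg cells and the dashed line marks equal differences. Top2a lies on the line at 1.78 and 1.82, and Mir3064 lies off it at 0.13 in siTdg and -1.85 in siC cells.

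Called genes differed in length. The median gene length, recovered from the deposited values, was 4736 bases for genes higher in siTdg G2M and 1959 bases for genes lower, against 2931 bases for all genes tested. In the longest quartile of protein-coding genes (4579 to 35880 bases) 21.2% were higher and 0.680% lower in siTdg G2M. In the shortest quartile (320 to 1904 bases) 2.28% were higher and 6.28% lower. The medians by length were not alike in both pairs. In the replicate 1 pair the median log2 difference was 0.05 in the shortest and 0.10 in the longest quartile, and in the replicate 2 pair it was -0.15 and 0.19. In siC cells the medians were 0.04 and 0.06. With each library's trend with length removed, an alternative chosen after the data were seen, 970 genes were higher and 721 lower, and 1252 of the 1687 calls remained. The counts of higher members were then 17 of 28 mitotic kinases and cyclins, 23 of 40 spindle genes, 23 of 38 kinetochore genes and 15 of 34 chromosome genes, and those of lower members were 15 of 53 p53 targets and 10 of 24 2-cell-like genes. Of the recombination and Fanconi genes, whose median length was 4332 bases, 9 of 32 were then higher. Genes of long non-coding RNA made up 56 of 506 genes called lower with a RefSeq match (11.1%), 6 of 1180 called higher (0.508%) and 437 of 12529 tested (3.49%).

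**Figure D5:**
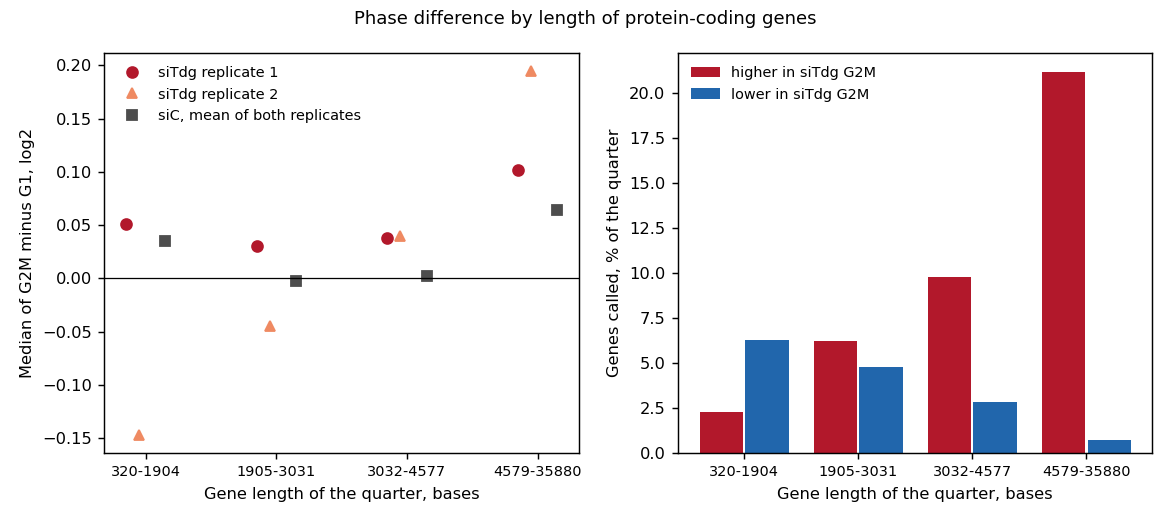
Protein-coding genes were split into quartiles by gene length (x axes, in bases). The left panel gives the median G2M minus G1 log2 difference of each quartile in the replicate 1 and replicate 2 pairs of siTdg cells and in siC cells, and the right panel the percent of genes called higher (red) or lower (blue) in siTdg G2M, which reaches 21.2% higher in the longest quartile.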

How the data were processed

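RNA of 8 libraries of E14Tg2A ESCs separated by phase was analysed, with groups and replicate numbers from the sample titles. The authors deposited RPKM in 1 table for each siRNA, with log2 fold changes (signed G2M minus G1), their standard errors and p-values in the authors' deposited tables, whose column names are those DESeq2 gives, per the file headers. The deposited mean normalised counts served as a signal to turn RPKM back into reads, and 100% of positive values came out whole within 0.01 reads. TopHat, DESeq2 and the build mm9 are named in the submitters' processing notes, and the sources used here give neither the annotation, the counting tool nor its strand setting, so reads of overlapping, antisense or near-identical genes may be shared. From the reads each gene's length came out whole for 20009 of 20009 genes, and lengths were equal in both tables. The RPKM values were scaled by the authors separately for each table, so tests use differences within a table. No pair of libraries was within sampling noise (lowest chi-square per degree of freedom 5.34). Between the 2 libraries of a group the value was 56.0 for siTdg G1, 29.5 for siTdg G2M, 24.0 for siC G1 and 19.4 for siC G2M. The highest, 78.5, was between siTdg G1 replicate 2 and siC G2M replicate 1. The reason for the distance of siTdg G1 replicate 2 was not tested.

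Values were tested as log2(RPKM + 0.5) with limma 3.58.1 in R 4.3.3 (eBayes with trend, two-sided, 2 residual and 5.63 prior degrees of freedom), which understates changes of low genes. The model held a block for each siRNA and replicate number (4 pairs) and a phase effect per siRNA. Deviations from group means of same-numbered libraries correlated at 0.56 to 0.72 over the 6 pairs of groups, but with 2 numbers per group and no statement in the labels this does not settle that numbers mark a shared origin. The model was also run on simulated data drawn from its own paired form, which cannot test whether the pairing holds. The paired fit, 25 gene lists (673 of 709 entries matched by symbol or synonym, histones completed by symbol to 67 genes) and the genes named were chosen with earlier results of these data known. Named are Tdg, Trp53, Cdkn1a, Mdm2 and Ccng1, the 15 largest and 10 most negative differences among called genes whose higher group averaged 1 RPKM or more and whose libraries did not overlap (clone and predicted-gene symbols left out), called members of lists, and the 4 smallest p of the difference between siRNAs. Alternatives were other blocks, pseudocounts, filters, scalings, no trend, limma-voom on recovered reads, leaving out libraries and removing a trend with gene length. Some results of named or listed genes are not reported here. The other samples of the series were not analysed here.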

Additional observations from a re-analysis of the deposited data

Results flagged for a closer look

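Mir3064 was the 1 gene called for the difference between siRNAs, at 1.98 on the log2 scale (95% interval 1.73 to 2.22, adjusted p = 0.00141). This interval rests on how closely the pairs of each siRNA agreed and does not model the counting noise of few reads. In the authors' deposited tables the SE of its phase difference was 0.90 in siTdg and 0.99 in siC cells, so the interval is likely too narrow. It had 11.2 and 4.72 RPKM in siTdg G2M and 9.93 and 4.39 RPKM in siTdg G1, a log2 difference of 0.13. In siC cells it had 3.53 and 1.88 RPKM in G2M and 13.4 and 8.40 RPKM in G1, a log2 difference of -1.85. These values rest on 22 and 10 reads in siTdg G2M, 18 and 7 reads in siTdg G1, 6 and 3 reads in siC G2M and 30 and 20 reads in siC G1, over a gene of 67 bases. In RefSeq it lies within Ddx5, whose log2 difference in siTdg cells was 0.04. With no replicate block, with one block shared by all 8 libraries, with no filter and with limma-voom, 0 genes were called for the difference between siRNAs, so this call was lost.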

How the results depend on the processing

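The counts of calls depend on the replicate block. With it 1180 genes were higher and 507 lower in siTdg G2M, and with no replicate block 18 and 3. With the siTdg libraries alone, the block gave 1248 and 681, on only 1 residual degree of freedom. Those libraries alone with no block gave 0 and 0 (663 genes at an unadjusted p under 0.05). A block per number shared by all 8 libraries gave 696 and 288. With no filter 309 and 131 of 20009 genes were called, without a trend 785 were higher, and quantile normalization and limma-voom on recovered reads gave 831 and 781 lower. The share of calls that were higher was 69.9%, against 54.5% after quantile normalization, 55.6% with limma-voom and 57.4% with the length trend removed. Leaving out one replicate gave 0 to 1827 higher and 0 to 1622 lower; the high ends come without siTdg replicate 1 in the paired fit and the low ends without the block. Calls for the difference between siRNAs ranged from 0 to 1073 when a replicate was left out (1073 without siTdg replicate 1, 16 without replicate 2, 85 and 94 without siC replicate 1 or 2), and were 0 with no replicate block, the shared block, no filter or limma-voom and 2 with the length trend removed; the cause was not tested. Of 30 named genes 15 lost the call with no replicate block. None of the 30 named genes changed direction in the settings run, and 24 of them passed the filter at 2 RPKM. Both groups have 2 libraries, which limits the precision of each spread.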

Other observations

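After Mir3064 the smallest p for the difference between siRNAs were those of Mir3098, Mir93 and Snord83b, each with an adjusted p of 0.142, so none was called. Snord83b, a small nucleolar RNA gene that lies within Rpl3 in RefSeq, had 77 and 52 reads in siTdg G2M, 42 and 21 reads in siTdg G1, 44 and 21 reads in siC G2M and 66 and 50 reads in siC G1. Its phase difference was 0.81 in siTdg cells and -0.42 in siC cells on the log2 scale. Mir3098 had 1 to 3 reads in each siTdg library, and Mir93 had 0 to 3 reads in each of the 8 libraries. Of 64 tested microRNA genes 11 were lower in siTdg G2M (17.2%, against 4.05% of all genes tested) and 0 higher (median -0.20). Such short genes can pass the filter on a few reads. Mir6924 and Mir93 passed it through siTdg G1 alone, with 0 reads in each siTdg G2M library. The share therefore does not show a fall of microRNA genes as a class. Of 82 tested small nucleolar RNA genes 7 were higher (8.54%) and 3 lower (3.66%), close to the 9.42% and 4.05% of all genes tested, with a median of -0.04 in siTdg cells against -0.26 in siC cells. Both groups were chosen after their values were seen.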
